A study of Mus musculus with 56 samples.

Results

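The comparison asked how memory T cells that were negative for the inhibitory receptor PD1 after a pregnancy differed from memory T cells of mice that had not been pregnant. The cells were fetus- and graft-specific CD8+ T cells (TFGS), which bind an ovalbumin peptide on the H-2Kb molecule of the mother. S+P C4 cells were the PD1-negative TFGS of sensitized and pregnant mice, and Sensitized cells were TFGS of sensitized mice, for which the labels name no subset. They were chosen by their labels, 6 S+P C4 and 4 Sensitized samples out of 30 in the study, which took 17 of its 56 libraries. The labels number 6 S+P C4 replicates, more than the study states for a group, so some, though each is called a mouse here, may share an animal, and p-values measure the spread between these samples.

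All mice were C57BL/6 females, and both groups had received a skin graft from a 2W-OVA.BALB/c donor, whose cells carry ovalbumin and foreign BALB/c antigens. The S+P mice were then mated with 2W-OVA.BALB/c males and killed within days of delivery, while the Sensitized mice were not mated. In its flow cytometry the paper took Sensitized mice from the same time after the graft at which mating of S+P mice began. Time since the graft may therefore also have differed between the groups. TFGS were sorted from pooled spleen and lymph nodes, 200 cells per library, for SmartSeq2, a full-length cDNA method. The labels do not say how the Sensitized TFGS were gated. Pregnancy, time since the graft and any difference in the sort cannot be told apart.

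Memory CD8+ T cells keep the granule proteins and cytokines needed to kill target cells, and many live for long periods on interleukin-7. Cells that meet antigen for a long time can instead become exhausted or hypofunctional, with coinhibitory receptors such as PD1, LAG3 and TIGIT on the surface and the transcription factor TOX in the nucleus. Pregnancy exposes the mother's T cells to antigens that the fetus has inherited from the father.

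After technical libraries of a mouse were summed, the 10 samples had 15547934 to 54809406 counts. S+P C4 replicates 2 and 3 stood apart: they had 1 library each and 8002 and 7436 detected genes, where the other 8 samples had 12383 to 17398. S+P C4 replicate 3 also had 24.3% of its counts on mitochondrial genes and replicate 2 had 7.78%, where the others had 2.04% to 4.58%. The main results are therefore given for all mice and without these 2. A library of S+P C4 replicate 1 that held the same counts as a Naive library was left out, so replicate 1 also had 1 library. The 2 libraries of Sensitized replicate 2 correlated less (r = 0.617) than those of the other 6 pairs used (0.83 to 0.874). Ribosomal protein genes took 4.78% to 6.26% of the counts in the 4 remaining S+P C4 mice and 6.63% to 8.98% in Sensitized (two-sided exact permutation test, p = 0.0286 without the 2 mice, the smallest that 4 against 4 can give, and 0.186 after Benjamini-Hochberg adjustment over 13 quantities). In S+P C4 replicates 2 and 3 they took 7.78% and 10.3%, and with all mice the same test gave p = 0.362.

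**Figure D1:**
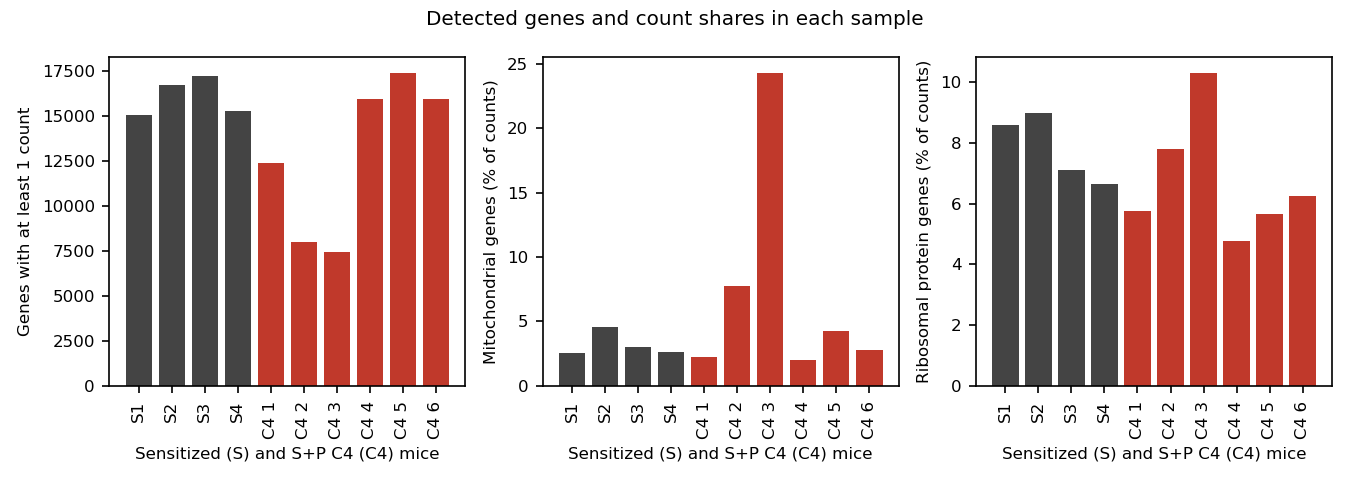
Bars give the number of genes with at least 1 count and the percent of counts on mitochondrial and on ribosomal protein genes, for each of the 6 S+P C4 and 4 Sensitized samples. S+P C4 replicates 2 and 3 had 8002 and 7436 detected genes, and replicate 3 had 24.3% mitochondrial counts.

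Trgc2, a constant gene of the T cell receptor gamma chain, rose in S+P C4 and was the single gene past both thresholds, which were an absolute log2 fold change above 0.9 and an adjusted p under 0.1. Its level was 41.7, 69.5, 37.0 and 75.2 CPM (counts per 1e6 counts of the library, after TMM scaling) in S+P C4 replicates 1, 4, 5 and 6, and 1374 and 0.298 CPM in replicates 2 and 3. In the Sensitized mice it was 0, 0, 0.0304 and 0.0519 CPM. The groups did not overlap, although replicate 3 lay close to the Sensitized level. Over all mice S+P C4 had 34396 counts of Trgc2 and Sensitized had 3, a ratio of CPM of 10258 with a 95% counting interval of 3509.8 to 49745. Without replicates 2 and 3 there were 8018 counts, and the ratio was 2909 (995 to 14110.0). These intervals cover counting error only. In the quasi-likelihood test of edgeR, adjusted over all genes after Benjamini and Hochberg, the log2 fold change was 13.39 ± 2.27 (SE, n = 6 and 4, adjusted p = 0.0301) with all mice and 11.18 ± 1.67 (n = 4 and 4, adjusted p = 0.00584) without the 2, fitted sizes that depend on the prior count. Trgc2 was thus 1 of 19657 genes tested (0.00509%) and 1 of 19601 (0.0051%). With all mice the call was lost when any of the 4 Sensitized mice was left out, and it held without any single S+P C4 mouse. It was also lost when only the 2 groups entered the fit, where no gene passed and 106 of 12639 (0.839%) had an unadjusted p under 0.05.

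Trgc2 lies in a cluster with 3 close relatives, and these sequences of a coding exon are shown because read pairs are assigned among them by few bases. Each is a 90-base stretch of the first coding exon in GRCm39, 5′ to 3′ in the sense of the gene. Capitals mark the bases that differ from Trgc2, and in Trgc2 those at which Trgc1 or Trgc3 differs.
Trgc2, chr13:19491512-19491601, minus strand: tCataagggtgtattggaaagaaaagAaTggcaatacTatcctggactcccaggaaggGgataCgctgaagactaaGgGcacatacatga
Trgc1, chr13:19398393-19398482, plus strand: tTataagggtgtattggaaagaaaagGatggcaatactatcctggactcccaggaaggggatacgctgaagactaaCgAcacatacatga
Trgc3, chr13:19445175-19445264, plus strand: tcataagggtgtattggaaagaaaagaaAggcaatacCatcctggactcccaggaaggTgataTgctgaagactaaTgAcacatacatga
Trgc4, chr13:19528848-19528937, plus strand: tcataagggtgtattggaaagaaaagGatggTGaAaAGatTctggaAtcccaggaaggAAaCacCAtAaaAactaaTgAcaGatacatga
In these stretches Trgc1 differed from Trgc2 at 4 bases, Trgc3 at 6 and Trgc4 at 18. Over the whole exon of 330 bases the identity was 97.3%, 96.7% and 81.5%. The authors removed reads that mapped to several places, so the level of each gene is uncertain.

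The other gamma chain genes did not pass. Trgc3 had at most 15.4 CPM in S+P C4 and 0 in all 4 Sensitized mice, which is at least 255-fold higher against a floor of 3 counts over the group (at least 310-fold without replicates 2 and 3). Its log2 difference had p = 0.022 with all mice, and the adjusted p was 0.318. Trgc1 reached 4.03 CPM in S+P C4 and 0.234 in Sensitized, and Trgc4 reached 56.0 and 12.05 CPM, with p = 0.146 and 0.292 over all mice. Trdc, the delta chain constant gene that marks gamma-delta T cells, was at 0 to 4.80 CPM in S+P C4 and 1.12 to 5.09 in Sensitized, with a log2 fold change of -0.59 (p = 0.744). The sum of 8 gamma-delta T cell markers was highest in S+P C4 replicate 2, the sample with 1374 CPM of Trgc2, at 214 CPM, all of it Maf, while Trdc was at 0 there. In the other S+P C4 mice the sum was 0 to 43.9 CPM and in Sensitized 5.04 to 11.8.

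Outside Trgc2 no gene passed in edgeR's test, while DESeq2 on the same mice called 450 genes higher (2.29%) and 461 lower (2.35%), and limma voom with sample weights called 50 (0.254%) and 33 (0.168%). The groups of genes that follow are described at an unadjusted p under 0.05. Within the groups, many genes were named because their p was small. At that level edgeR's test gave 817 genes higher (4.16% of those tested) and 1682 lower (8.56%) in S+P C4 with all mice, and 796 higher (4.06%) and 1173 lower (5.98%) without replicates 2 and 3. The median log2 fold change over all genes was -0.14 with all mice and 0.00 without the 2, and the medians of the groups are to be read against these.

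Coinhibitory receptors lower the response of a T cell when they meet their ligands. Of 13 genes in this list, 4 were higher at that level, 1 of them the ligand gene Cd200, and none was lower, with and without replicates 2 and 3. The median log2 fold change was 0.88 and 0.99. The adjusted p of each of the 4 was above 0.3. Tigit, the receptor that competes with CD226 for its ligands, was at 47.4, 158, 185 and 94.6 CPM in S+P C4 replicates 1, 4, 5 and 6, at 121 in replicate 2 and at 0.199 in replicate 3. It was at 16.4, 4.85, 17.5 and 12.6 CPM in the Sensitized mice. Every S+P C4 mouse but replicate 3 was thus above every Sensitized mouse. The log2 fold change of Tigit was 2.98 ± 0.98 (p = 0.00479) with all mice and 3.28 ± 0.83 (p = 0.000471) without the 2.

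Lag3, which binds MHC class II, was also above the Sensitized range in every S+P C4 mouse but replicate 3. It was at 40.8, 169, 179 and 141 CPM in the 4 remaining S+P C4 mice, at 123 and 0 CPM in replicates 2 and 3, and at 14.5, 0, 20.9 and 26.6 CPM in Sensitized. Havcr2, which encodes TIM3, was at 35.8, 56.2, 47.3 and 26.5 CPM in those 4 mice, at 0 in both other S+P C4 mice, and at 0, 0, 6.07 and 0.0519 CPM in Sensitized. For Havcr2 the 4 S+P C4 mice with more detected genes were above the Sensitized range. The log2 fold changes without replicates 2 and 3 were 3.12 ± 1.30 for Lag3 (p = 0.0247) and 4.77 ± 1.75 for Havcr2 (p = 0.0108), and with all mice 2.81 ± 1.34 (p = 0.0441) and 4.17 ± 1.99 (p = 0.0442). Cd200, a ligand that dampens myeloid cells, was above the Sensitized range of 0.273 to 7.84 CPM in 4 of 6 S+P C4 mice, at up to 92.5 CPM, and below it in the other 2.

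A two-sided exact permutation test of the mean log2(CPM + 1), run for 25 genes, gave p = 0.0286 for Tigit, Lag3 and Havcr2 without the 2 mice, the smallest that 4 against 4 can give, and 0.119 after Benjamini-Hochberg adjustment over the 25. With all mice the same test gave p = 0.219 for Tigit, 0.229 for Lag3 and 0.143 for Havcr2. Other receptors overlapped between the groups. Ctla4 was at 27.3 to 98.1 CPM in Sensitized, and 4 of 6 S+P C4 mice lay inside that range. Cd160 was at 0 to 111 CPM in S+P C4 and 90.2 to 120 in Sensitized.

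Pdcd1, which encodes the gated protein PD1, is no result because the gate used it. Its level was 62.5, 131, 78.0 and 46.9 CPM in S+P C4 replicates 1, 4, 5 and 6, 31.8 and 0 in replicates 2 and 3, and 41.9 to 59.4 in Sensitized. Pdcd1 transcripts were therefore measured in 5 of 6 samples of cells sorted as negative for the protein.

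Among 14 transcription factors tied to exhaustion, 3 were higher and none lower in each set of mice, and the median log2 fold change was 0.54 with all mice and 0.87 without the 2. Tox, a chromatin-binding factor needed for the exhausted state, was at 33.9, 189, 217 and 165 CPM in S+P C4 replicates 1, 4, 5 and 6 and at 177 and 26.9 in replicates 2 and 3. The Sensitized mice had 38.2, 52.0, 37.3 and 46.4 CPM of Tox. Replicates 2, 4, 5 and 6 were above all Sensitized mice, while replicates 1 and 3 were below all of them. The log2 fold change of Tox was 1.63 ± 0.49 (p = 0.00206, adjusted p = 0.315) with all mice and 1.85 ± 0.43 (p = 0.00018, adjusted p = 0.494) without the 2. The exact permutation test of Tox gave p = 0.143 in both sets of mice.

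Nfatc1, a calcium-driven activator downstream of the T cell receptor, was at 173 to 292 CPM in the 4 remaining S+P C4 mice and 104 to 152 in Sensitized, without overlap. With replicates 2 and 3 added, at 74.6 and 122 CPM, the groups overlapped, and p went from 0.00144 to 0.11. Maf, a factor linked to interleukin-10, was highest in replicate 2 at 214 CPM, beside 0 to 34.6 in the other S+P C4 mice and 0.539 to 4.16 in Sensitized. Of the 4 remaining S+P C4 mice, 3 were above all Sensitized mice and 1 was below them. Its log2 fold change was 3.96 ± 1.43 (p = 0.00941, adjusted p = 0.315) with all mice and 2.10 ± 0.997 (p = 0.0444, adjusted p = 0.494) without the 2. Of 13 factors of quiescence and central memory, none was higher or lower at that level in either set, and the median log2 fold change was 0.32 and 0.03. Tcf7, which keeps memory cells able to renew, was at 97.5 to 546 CPM in S+P C4 and 299 to 386 in Sensitized. Satb1, an organizer of chromatin in T cells, was at 79.8 to 752 CPM and 103 to 287 CPM.

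**Figure D2:**
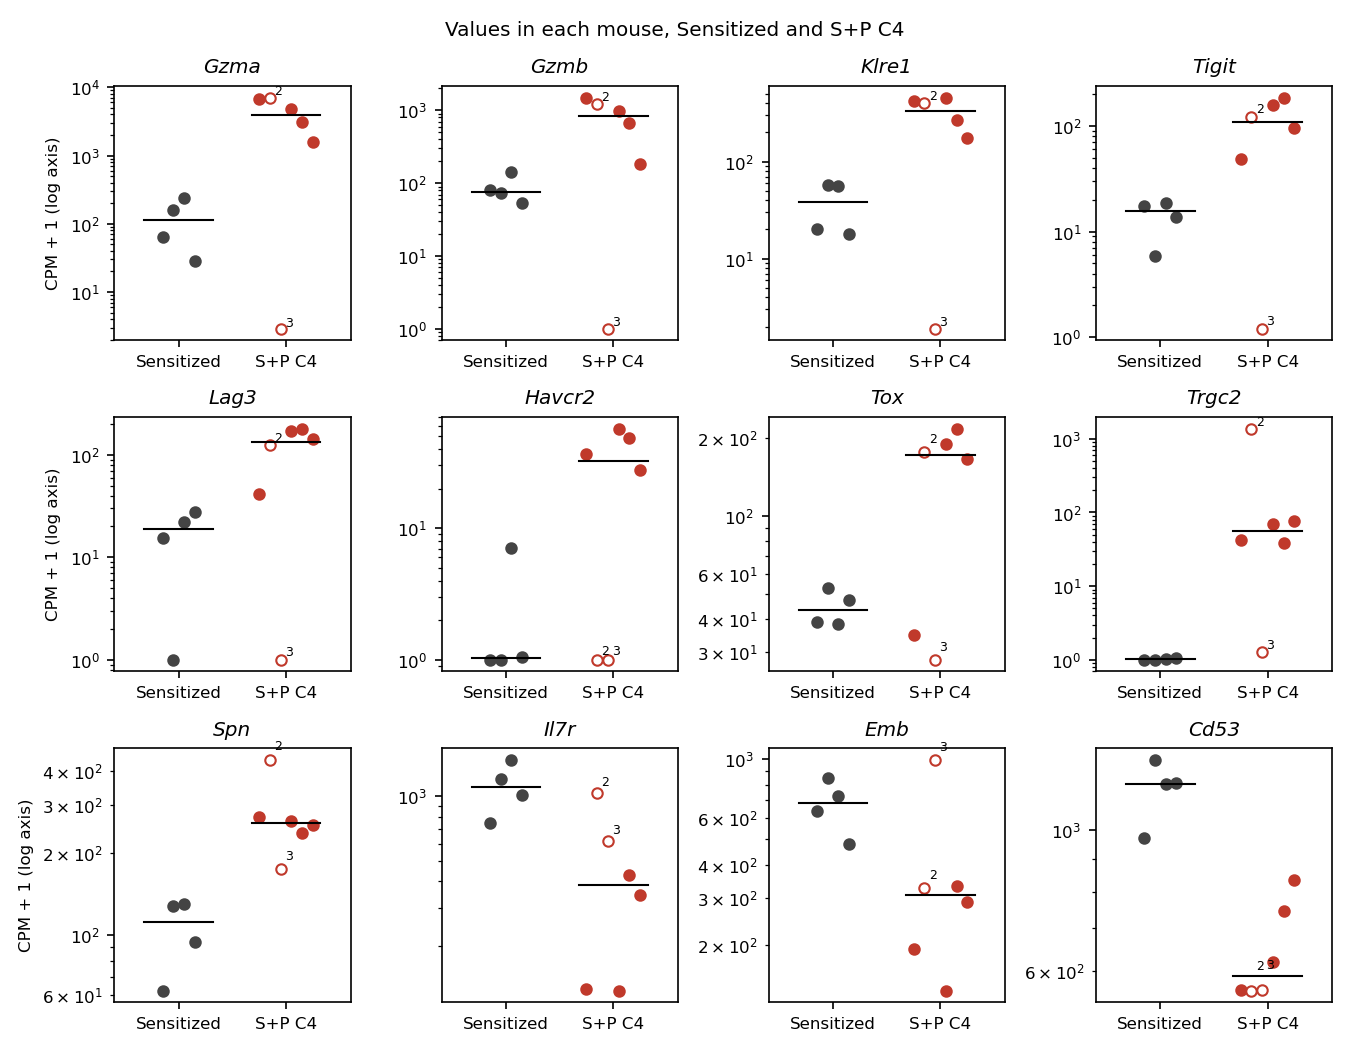
Points give the level of 12 genes in each mouse as CPM + 1 on a log axis, S+P C4 beside Sensitized, with the median as a line and S+P C4 replicates 2 and 3 as open circles. Trgc2, Spn and Cd53 did not overlap between the groups in all mice, and Gzma, Gzmb, Klre1, Tigit and Lag3 were above the Sensitized range in 5 of 6 S+P C4 mice.

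Cytotoxic granules hold the proteins with which CD8+ T cells kill. In the 4 mice left without replicates 2 and 3, 5 of 12 granule genes were higher at that level and none lower, with a median log2 fold change of 0.67, and with all mice 1 was higher, with a median of 0.44. Gzma, the granule protease granzyme A, was at 6830, 4850, 3106 and 1582 CPM in S+P C4 replicates 1, 4, 5 and 6, at 7080 in replicate 2 and at 1.89 in replicate 3. The Sensitized mice had 63.8, 158, 237 and 27.9 CPM. Gzma was thus far above the Sensitized range in 5 S+P C4 mice and below it in 1. Its log2 fold change was 5.01 ± 2.42 (p = 0.0498) and 5.09 ± 2.35 (p = 0.042), and the adjusted p was 0.392 and 0.494.

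Gzmb, granzyme B, which cleaves caspases in the target cell, was at 1500, 974, 673 and 183 CPM in those 4 mice, at 1233 and 0 CPM in replicates 2 and 3, and at 79.5, 72.3, 140 and 52.2 CPM in Sensitized. Gzmb was above the Sensitized range in every S+P C4 mouse but replicate 3, and its log2 fold change was 3.14 ± 1.62 (p = 0.064) and 3.29 ± 1.48 (p = 0.0367). Gzmk, granzyme K, was at 246 to 658 CPM in the 4 remaining S+P C4 mice and 94.8 to 218 in Sensitized, with p = 0.0329 without the 2 and 0.0889 with all mice. Prf1, the pore protein perforin, overlapped more. It was at 790, 544, 336 and 217 CPM in S+P C4 replicates 1, 4, 5 and 6, at 126 and 91.5 in replicates 2 and 3, and at 301, 126, 298 and 201 CPM in Sensitized. Nkg7, another granule gene, overlapped, at 2264 to 6734 CPM in S+P C4 and 2295 to 3978 in Sensitized.

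The 250 bases before the transcription start of Gzma and Gzmb are shown because these had the largest log2 fold changes of the granule genes. They come from the RefSeq promoter table (GRCm38.p6), 5′ to 3′ in the sense of the gene, and capitals mark TGTGGT or its reverse complement ACCACA, the core that RUNX factors bind.
Gzma, chr13:113100982-113101231, minus strand: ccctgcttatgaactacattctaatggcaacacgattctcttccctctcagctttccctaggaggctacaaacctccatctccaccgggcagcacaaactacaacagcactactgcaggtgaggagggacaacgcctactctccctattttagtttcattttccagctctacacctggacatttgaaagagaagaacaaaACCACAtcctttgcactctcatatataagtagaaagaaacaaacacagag
Gzmb, chr14:56262335-56262584, minus strand: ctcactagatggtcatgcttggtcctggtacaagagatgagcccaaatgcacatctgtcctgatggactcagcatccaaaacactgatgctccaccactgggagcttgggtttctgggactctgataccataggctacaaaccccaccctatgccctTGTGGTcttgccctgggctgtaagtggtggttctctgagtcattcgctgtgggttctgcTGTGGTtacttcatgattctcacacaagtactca
The Gzma stretch held 1 match and the Gzmb stretch held 2, and 14.0% of 32851 promoters in the table held at least 1. Of 6 other genes searched, Prf1, Tigit and 1 of 2 stretches of Klre1 held 1 match, and Gzmk, Il7r, Emb and the other stretch of Klre1 held 0. A second motif, GGTGTG or its reverse complement CACACC, was also searched. It had 0 matches in Gzma and Gzmb and 1 each in Gzmk and Emb, and 16.3% of the promoters held it.

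Receptors of the NK lectin type also separated in part. Klre1, which NK cells and activated CD8+ T cells carry, was at 419, 455, 268 and 175 CPM in S+P C4 replicates 1, 4, 5 and 6, at 399 and 0.894 CPM in replicates 2 and 3, and at 19.1, 56.9, 55.3 and 17.1 CPM in Sensitized. Its log2 fold change was 2.95 ± 1.26 (p = 0.026) and 3.18 ± 1.16 (p = 0.0109). In the group 2 of 11 were higher in each set, and 1 was lower with all mice. Klrk1, which encodes the activating receptor NKG2D, was at 620 to 1368 CPM in S+P C4 and 915 to 1312 in Sensitized, and Klrd1 was at 301 to 472 and 323 to 510.5 CPM.

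Il7r, the interleukin-7 receptor alpha chain, was lower in most S+P C4 mice. It was at 125, 122, 429 and 343 CPM in S+P C4 replicates 1, 4, 5 and 6, at 1035 and 616 CPM in replicates 2 and 3, and at 752, 1207, 1486 and 1010 CPM in Sensitized. All S+P C4 mice but replicate 2 were below all Sensitized mice. The log2 fold change of Il7r was -1.32 ± 0.45 (p = 0.0057, adjusted p = 0.315) and -2.08 ± 0.44 (p = 5.81e-05, adjusted p = 0.38). The exact permutation test gave p = 0.0286 in both sets of mice, and 0.357 and 0.119 after adjustment over the 25 genes. In single libraries, before scaling between samples, Il7r was at 99.7 to 788 CPM in the 9 of S+P C4 and 745 to 1621 CPM in the 8 of Sensitized.

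Of the 21 cytokine receptors 2 were lower with all mice and 1 without the 2, and none was higher. The lower counts were near the shares among all genes tested, 8.56% and 5.98%. Il2rb, shared by the receptors for interleukin-2 and interleukin-15, was at 260 to 1104 CPM in S+P C4 and 370 to 572 in Sensitized. Ifngr1, an interferon gamma receptor chain, was at 276 to 949 and 435 to 854 CPM. Bcl2, a survival gene that interleukin-7 sustains, was at 125, 103, 182 and 229 CPM in the 4 remaining S+P C4 mice and 220 to 366 in Sensitized, with p = 0.0471 without the 2 and 0.275 with all mice. It was the single member of 12 in the BCL2 family past that level in either set.

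Among 21 genes of homing and adhesion, 2 were higher in each set, and 1 was lower with all mice and 2 without replicates 2 and 3. Itgal, the alpha chain of the integrin LFA-1, was at 547 to 1032 CPM in S+P C4 and 420 to 581 in Sensitized, and 5 of 6 S+P C4 mice were above the Sensitized range. Its log2 fold change was 0.71 ± 0.24 (p = 0.00666) and 0.77 ± 0.23 (p = 0.00223). Itgb1, another integrin chain, was at 417 to 840 CPM in the 4 remaining mice, at 1672 and 115 CPM in replicates 2 and 3, and at 297 to 473 CPM in Sensitized. Emb, an immunoglobulin superfamily protein that aids transport of monocarboxylates, was at 192, 133, 332 and 289 CPM in S+P C4 replicates 1, 4, 5 and 6 and 479 to 850 in Sensitized. Replicate 3, at 993 CPM, was above every Sensitized mouse, and the log2 fold change was -0.83 ± 0.40 (p = 0.0466) with all mice and -1.46 ± 0.35 (p = 0.000233) without the 2. Ccr7, a homing receptor for lymph nodes, overlapped. It was at 1358 CPM in replicate 3, above its 41.4 to 275 CPM in the other S+P C4 mice.

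In cytokines and chemokines 4 of 16 were higher with all mice and 5 without the 2, and none was lower. Csf1, a growth factor for macrophages, was at 26.6, 24.3, 7.73 and 1.02 CPM in S+P C4 replicates 1, 4, 5 and 6, at 7.40 in replicate 2 and at 0 in replicate 3. It had no count in any Sensitized mouse, which is at least 578-fold higher against a floor of 3 counts over the group (at least 652-fold without the 2). The adjusted p of Csf1 was 0.315 and 0.494. Tnfsf4, the costimulatory ligand OX40L, was at 15.1, 12.4 and 10.5 CPM in replicates 4, 5 and 6, and at 0.0412 or less in the others. It had 1387 counts in S+P C4 and 2 in Sensitized, a ratio of 620 (171 to 5129), or 755 (209 to 6239) without the 2. Il10 and Il21 were also past that level, and Il21 was seen in 1 mouse, at 3.05 CPM. The abundant chemokine Ccl5 was at 2776 to 22088 CPM in S+P C4 and 5268 to 10755.5 in Sensitized, and Ifng was at 9.13 to 132 and 34.0 to 159 CPM.

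Markers of anergy and of pregnancy-modified cells had 2 of 11 higher in each set and none lower, and only Rnf128 was among them in both sets. Rnf128, a ubiquitin ligase of anergic cells, was at 9.03, 10.4 and 3.42 CPM in 3 S+P C4 mice and at no more than 0.1 CPM in Sensitized, with 718 and 3 counts in all. In edgeR's test, with all mice and without the 2, p was 0.0055 and 0.00139 for Rnf128, 0.21 and 0.0193 for Nrp1, and 0.019 and 0.0818 for Izumo1r. Nrp1 was at 55.6, 118, 86.4 and 39.7 CPM in the 4 remaining S+P C4 mice, near 0 in replicates 2 and 3, and at 13.6 to 23.2 CPM in Sensitized. Izumo1r, which encodes FR4, was at 12.2 to 32.5 CPM in those 4 mice and at 190 in replicate 3, and Sensitized mice had 0 to 15.7 CPM. Nt5e, which encodes the ectoenzyme CD73, was at 0 to 117 CPM in S+P C4 and 66.4 to 236 in Sensitized. Ikzf4, a zinc finger factor known from regulatory T cells, had no count in any S+P C4 mouse and 16.7, 3.55, 0 and 4.31 CPM in Sensitized. It was at least 434-fold lower with all mice and 357-fold lower without the 2 against a floor of 3 counts, and the adjusted p was 0.315 and 0.494.

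The genes with the smallest p among those that did not overlap in either set included surface molecules. With all mice 18 of the 19657 genes (0.0916%) were higher without overlap and 139 (0.707%) were lower, and without replicates 2 and 3 these were 230 (1.17%) and 271 (1.38%). Spn, the sialomucin CD43 of activated T cells, was at 271, 441, 173, 261, 237 and 253 CPM in S+P C4 replicates 1 to 6 and at 61.1, 127, 129 and 93.3 CPM in Sensitized. Its log2 fold change was 1.41 ± 0.47 (p = 0.00557, adjusted p = 0.315) and 1.35 ± 0.45 (p = 0.00585, adjusted p = 0.494). Replicates 2 and 3 were also above all Sensitized mice.

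Cd53, a tetraspanin of white blood cells, was lower without overlap. It was at 558, 557, 558, 618, 743 and 834 CPM in S+P C4 and at 969, 1290, 1182 and 1183 CPM in Sensitized, with a log2 fold change of -0.84 ± 0.21 (p = 0.000288, adjusted p = 0.315) and -0.71 ± 0.20 (p = 0.00153, adjusted p = 0.494). The other higher genes were Ptcd1, Cbx5, Tfdp1, Trrap, Ugcg and Zdhhc20. Cbx5, the heterochromatin protein HP1 alpha, was at 50.6 to 67.1 CPM in the 4 remaining mice, 559 and 143 CPM in replicates 2 and 3, and 19.99 to 30.7 CPM in Sensitized. The other lower genes were Saraf, a brake on calcium entry, Sgms1, which makes sphingomyelin, Vav3, Herc6, Lcn4, Ebag9 and H2-DMa. Saraf was at 352 to 497 CPM in S+P C4 and 513 to 785 in Sensitized, and Lcn4 was at 0 to 32.4 and 88.2 to 158 CPM.

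**Figure D3:**
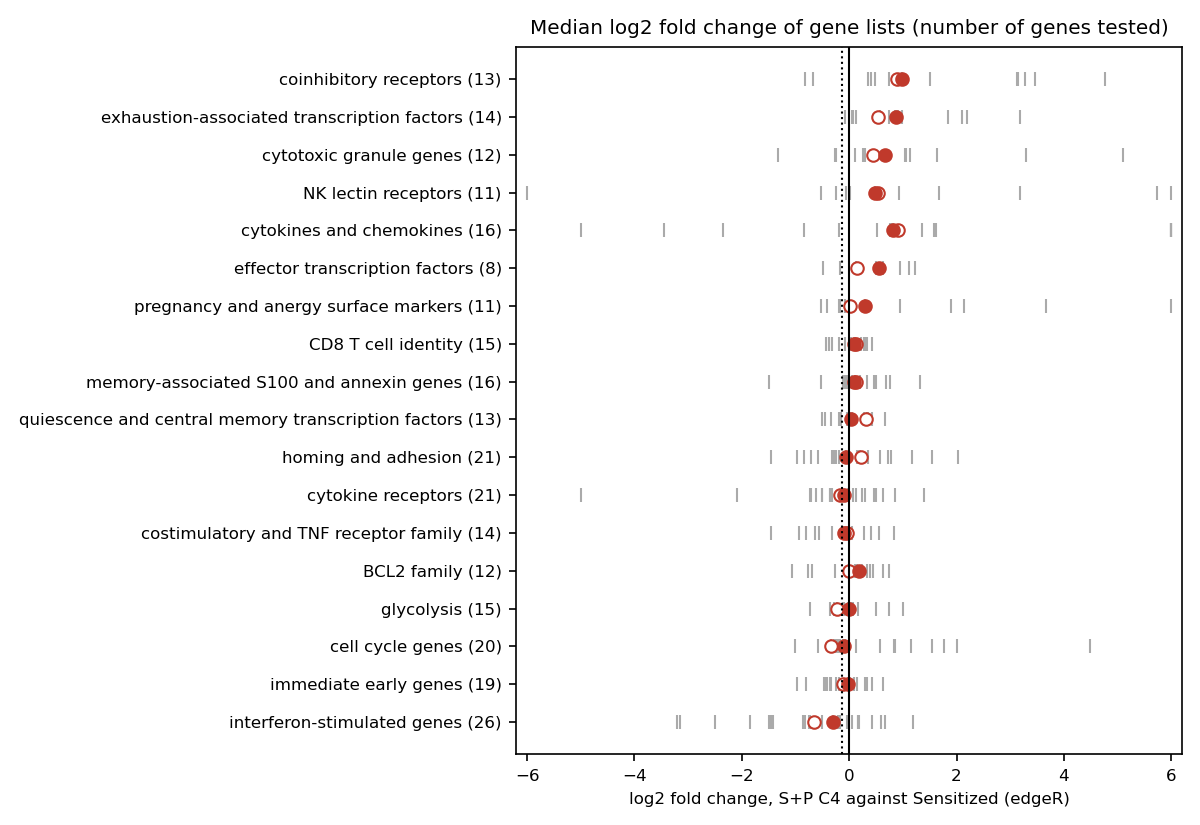
Grey ticks are the log2 fold changes, S+P C4 over Sensitized, of the genes of 18 groups without replicates 2 and 3, with values beyond 6 in either direction drawn at the edge. Open circles are group medians with all mice and filled circles without the 2, and the dotted and solid lines are the medians of all genes, -0.14 and 0.00. Coinhibitory receptors had medians of 0.88 and 0.99, and interferon-stimulated genes -0.66 and -0.31.

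Of 26 genes that interferons induce, 2 were lower with all mice, none was past that level without the 2, and none was higher, shares no larger than among all genes. The median log2 fold change was -0.66 and -0.31. Their summed level was 368 CPM in S+P C4 replicate 3, 1366 to 1908 in the other S+P C4 mice and 1801 to 1963 in Sensitized. Ifit3, which binds viral RNA, was at 0 to 74.8 CPM in S+P C4 and 110 to 244 in Sensitized, and Oas2 was at 0 to 6.89 and 12.7 to 26.5 CPM. Both were below the Sensitized range in every S+P C4 mouse. Cell cycle genes had 1 of 20 higher in each set, Ccnb2, at 20.7, 14.2, 15.9 and 35.3 CPM in the 4 remaining mice and 0 to 3.83 in Sensitized. Mki67, the proliferation marker Ki-67, was at 0.0521 to 67.7 CPM in S+P C4 and 0.909 to 64.7 in Sensitized.

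Several groups had few or no members past the level. Of 15 genes of CD8 T cell identity none was past it with all mice and 1 was lower without the 2, and Cd8a was at 567 to 1580 CPM in S+P C4 and 803 to 966 in Sensitized. Of 8 effector factors 1 was lower with all mice, Stat4, and none without the 2. Of 16 S100, annexin and related genes none was past it with all mice and 1, Ahnak, was higher without the 2, and S100a6 was at 172 to 688 and 435 to 866 CPM. None was past it in either set for 19 immediate early genes, 14 costimulatory receptors, 10 steroid receptor genes and targets, 15 glycolytic genes and 9 heat shock genes. At these sample sizes such counts do not show that the levels were equal.

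Signs of other cells were measured with marker genes. Ms4a1 of B cells, Sdc1 and Tnfrsf17 of plasma cells, Cd14 and Adgre1 of macrophages and Foxp3 of regulatory T cells had no count in any of the 10 samples. The summed level of 10 NK cell markers was 1670 to 7121 CPM in 5 S+P C4 mice, 4.77 in replicate 3 and 203 to 353 in Sensitized. Gzma alone was 1582 to 7080 CPM in those 5 mice, 1.89 in replicate 3 and 27.9 to 237 in Sensitized. The NK receptor gene Ncr1 was at 0 to 6.03 CPM in S+P C4 and 0 to 1.90 in Sensitized. Without Gzma the sum of NK markers differed by -1.20 on the log2 scale with all mice and -0.03 without the 2 (two-sided exact permutation test, p = 0.333 and 1). In a sorted bulk sample, fewer cells of a kind and less RNA per cell cannot be told apart.

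The summed markers of CD4 and regulatory T cells were at 0 to 102 CPM in S+P C4 and 83.2 to 197 in Sensitized (two-sided exact permutation test, p = 0.019 with all mice and 0.0571 without the 2, 0.248 after adjustment in both). Plasma cell markers were at 611 and 783 CPM in Sensitized replicates 1 and 2 and at no more than 60.2 in the other 8 samples, with Igha at 517 and 451 CPM in those 2. The sums of B cell markers were 73.3 to 733 and 231 to 1190 CPM, and those of macrophages, monocytes and neutrophils 1.19 to 71.3 and 7.21 to 373 CPM. Dendritic cell markers were at 1.59 to 160 and 109 to 137 CPM, and erythroid and platelet markers at 0.0521 to 419 and 2.18 to 6.95. At an unadjusted p under 0.05 with all mice, 3 of 5 tested plasma cell markers and 2 of 9 B cell markers were higher in S+P C4, and 1 of each was lower. Of 12 markers of macrophages, monocytes and neutrophils 3 were lower and none was higher, and of 8 erythroid and platelet markers 1 was higher and 2 lower. Of 9 NK, 6 CD4 and regulatory T cell and 3 gamma-delta T cell markers, 1 of each list was higher and 1 lower, and of 6 dendritic cell markers 1 was lower. The part of these markers in the differences above was not tested.

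S+P C5, the PD1-positive and CD73-positive TFGS of sensitized and pregnant mice, was the subset set beside S+P C4. In edgeR's test 6 genes (0.0305%) passed both thresholds between S+P C4 and S+P C5, 3 in each direction, and 9 (0.0459%) without replicates 2 and 3. The labels do not say whether samples of the same number in S+P C4 and S+P C5 came from the same mouse, and this test took them as independent. With replicate number as a block no gene passed, and 409 of 11822 tested had an unadjusted p under 0.05. Satb1 was higher in S+P C4, at 79.8 to 752 CPM against 11.8 to 41.3, with a log2 fold change of 3.53 ± 0.52 (adjusted p = 0.00206). Ifngr1 was also higher in S+P C4, at 276 to 949 CPM against 33.2 to 180 CPM, by 2.67 ± 0.46 (adjusted p = 0.0181). Without replicates 2 and 3 the adjusted p of these was 0.0125 for Satb1 and 0.0258 for Ifngr1. Slamf6, a costimulatory receptor, was lower in S+P C4 with all mice (log2 fold change -2.30 ± 0.46, adjusted p = 0.0614), and its adjusted p was 0.206 without the 2.

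The genes of the main comparison took other places in this order. Tox was at 252 to 525.7 CPM in S+P C5, above the 26.9 to 217 of S+P C4 and the 37.3 to 52.0 of Sensitized. Tigit was at 168 to 907 CPM in S+P C5 and 0.199 to 185 in S+P C4. Il7r was at 183 to 306 CPM in S+P C5, inside the range of S+P C4 and below that of Sensitized. The median of Gzma was 111 CPM in Sensitized, 3978 in S+P C4 and 226 among S+P C5 samples. In S+P C7, the PD1-positive and CD73-negative TFGS of these mice, Gzma was at 478 to 6009 CPM. Trgc2 was at 42.1 to 199 CPM in S+P C5 and 56.5 to 749 CPM in S+P C7, so it was seen in each subset of S+P mice. The adjusted p between S+P C4 and S+P C5 was 0.294 for Tox and Tigit, 0.306 for Il7r, 0.496 for Gzma and 0.732 for Trgc2.

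**Figure D4:**
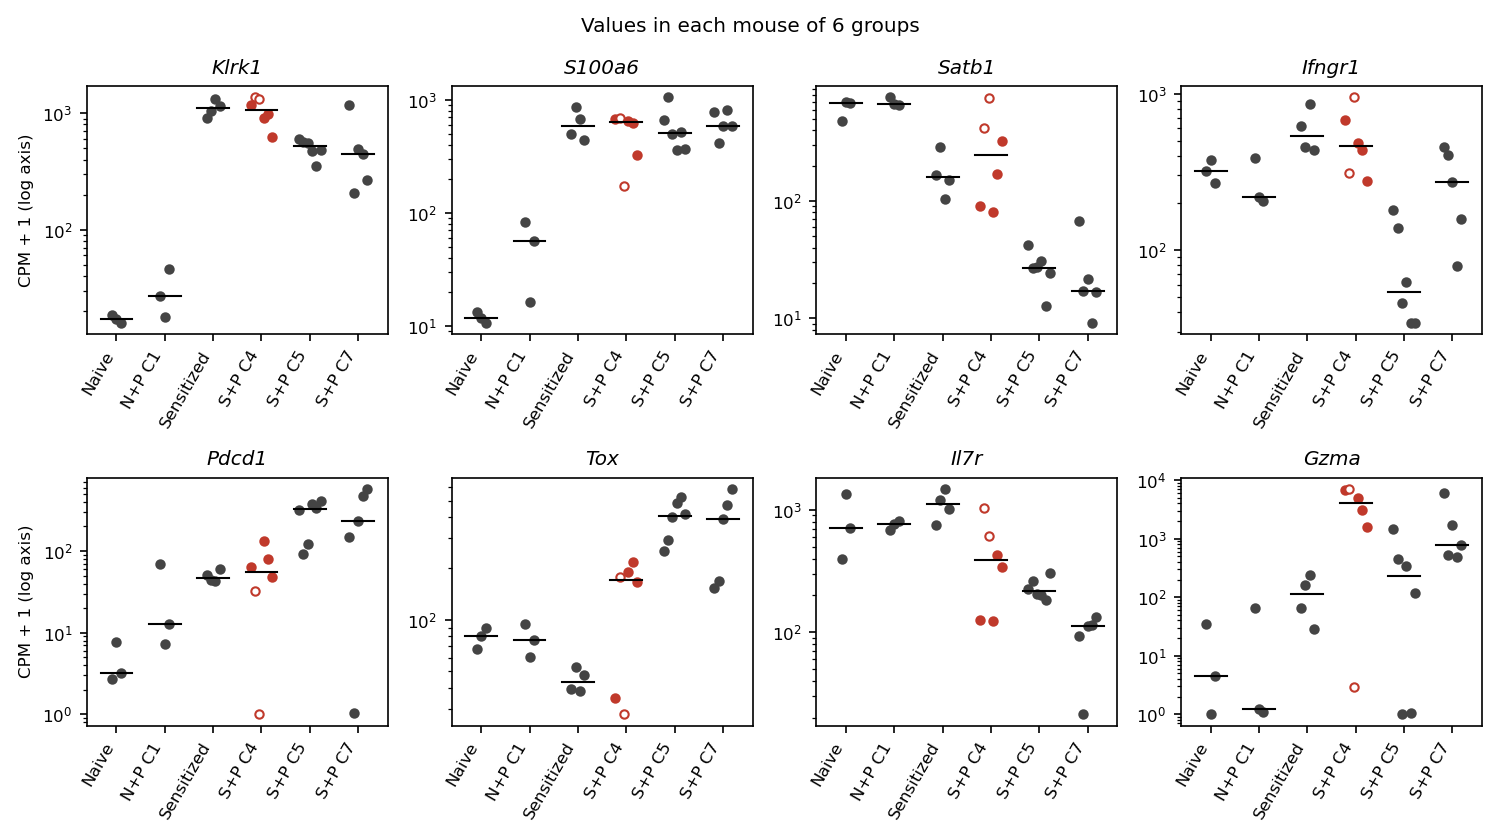
Points give CPM + 1 on a log axis for 8 genes in each sample of Naive, N+P C1, Sensitized and S+P mice, the last as C4, C5 and C7. Satb1 was at 79.8 to 752 CPM in S+P C4 and 11.8 to 41.3 CPM in S+P C5, and Tox was at 252 to 525.7 CPM in S+P C5.

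The naive counterpart was N+P C1, the PD1-negative cells of mice pregnant without a graft, compared with Naive mice (3 samples each). In edgeR's test of whether S+P C4 minus Sensitized differed from N+P C1 minus Naive, no gene passed with all mice. At an unadjusted p under 0.05, 506 genes (2.57%) were higher and 758 (3.86%) lower. DESeq2 called 727 and limma voom 36, each out of 19657 genes tested. Without replicates 2 and 3, 1 gene (0.0051%) passed. It was Trgc2, with a difference of 12.43 ± 2.11 on the log2 scale and an adjusted p of 0.0506. With all mice the difference of Trgc2 was 14.65, with an adjusted p of 0.26. Trgc2 was at 0 to 4.07 CPM in N+P C1 and 3.95 to 6.35 CPM in Naive. In N+P C5, the PD1-positive and CD73-positive cells of mice pregnant without a graft, it was at 35.5, 0.0292 and 5.62 CPM. Tox was at 59.9 to 93.4 CPM in N+P C1 and 66.4 to 88.1 CPM in Naive, and Gzma was at 0.115 to 63.1 and 0 to 34.4 CPM. Neither passed in that test (adjusted p = 0.696 for Tox and 1 for Gzma with all mice).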

How the data were processed

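RNA-Seq was run on TFGS sorted into SmartSeq2 libraries without molecular identifiers, all sequenced in 1 run with 150 bp read pairs. The authors trimmed reads with Cutadapt 3.4, aligned them with STAR 2.6.1b to GRCm39, kept reads with a single place and counted these per gene with featureCounts 2.0.1. They deposited raw counts of 55359 genes in 56 libraries, not normalized. The strand option and the annotation release are not given in the sources used here. Gene positions came from GENCODE release M39, which held 54749 of the genes.

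Technical libraries of a mouse were summed, and replicate numbers came from the labels. The library with identical counts in Naive replicate 1 and S+P C4 replicate 1 was left out of both. S+P C7 replicates 1 and 2 were counted as 1 sample, because a library of each was nearly the same (r = 0.998). The labels do not say which mice belonged to which of the study's experiments. After filterByExpr (minimum count 10) and TMM, edgeR 4.0.16 fitted the 7 groups together with its robust quasi-likelihood model, whose two-sided test gave log2 fold changes with Benjamini-Hochberg adjustment over all genes tested. A call required a log2 fold change above 0.9 in size and an adjusted p under 0.1. CPM use TMM-scaled library sizes. A count of 0 was bounded with a floor of 3 counts, and ratios have exact 95% intervals. Floors and intervals cover counting error only. Exact permutation tests over samples were two-sided, and 6 against 4 cannot give less than p = 0.00952.

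The rule for named genes took called genes, the 8 genes in each direction with the smallest p that did not overlap and had a mean of at least 10 CPM, 2 genes from each of 29 lists, and 25 genes set by name, such as Pdcd1, Nt5e, Il7r and Gzmb. Trgc1, Trgc4, Trdc, Cd160, Gzmk, Nkg7, Klrd1, Ccr7, Igha, Ncr1 and Slamf6 were named after their values were seen. The members and lists were chosen with earlier results of these data known.

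Alternatives were DESeq2 1.42.0, limma voom 3.58.1 with sample weights, RLE scaling, no TMM, other filters, libraries kept separate, only the compared groups in the fit, a replicate block and leaving out each mouse. The scripts were tested on simulated data. R 4.3.3 and Python 3.11.15 were used. S+P C7 and N+P C5 entered the fit but were not tested against another group. Some measured genes are not reported here.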

Additional observations from a re-analysis of the deposited data

Results flagged for a closer look

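In 19 of 146 groups of samples tested, the highest or lowest sample stood away from the rest by more than Dixon's 95% critical value, which chance gives in about 1 of 20. S+P C4 replicate 3 was the sample in 11 of them. It was low for Gzma (1.89 CPM), Gzmb (0), Klre1 (0.894), Lag3 (0), Nt5e (0), Pdcd1 (0) and Tigit (0.199), for the summed markers of dendritic cells (1.59 CPM) and of NK cells (4.77 CPM), and high for Tfdp1 (127 CPM) and for the percent of counts on mitochondrial genes (24.3%). Zdhhc20, a palmitoyltransferase gene, was high in S+P C4 replicate 2 at 965 CPM, and Oas2 in S+P C4 replicate 6 at 6.89 CPM.

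Among the Sensitized mice, replicate 3 was high for Havcr2 (6.07 CPM) and for Ccnb2 (3.83 CPM), and replicate 2 was high for Lcn4 (158 CPM) and for the summed markers of gamma-delta T cells (11.8 CPM). Replicate 4 was low for Tcf7 (299 CPM) and for the summed markers of erythroid cells and platelets (2.18 CPM).

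Without S+P C4 replicates 2 and 3, the difference between S+P C4 and Sensitized exceeded that between N+P C1 and Naive for Trgc2, by 12.43 on the log2 scale in the quasi-likelihood test of edgeR (Benjamini-Hochberg adjusted p = 0.0506). With all mice the adjusted p was 0.26.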

How the results depend on the processing

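Between S+P C4 and Sensitized the count of genes past both thresholds was 1 in edgeR. It was 770 of 16535 tested with technical libraries kept as separate samples, a setting that counts libraries of 1 mouse as independent. It was 911 with DESeq2, 83 with limma voom and 0 with only the compared groups in the fit, and it ranged from 0 to 1 when 1 mouse was left out. Without S+P C4 replicates 2 and 3 it was 2 with RLE and with no filter, 31 with separate libraries, 917 with DESeq2, 72 with limma voom and 1 to 3 when 1 mouse was left out. Of 44 genes described, limma voom called 8 with all mice and 8 without the 2, and Csf1, Emb, Il7r, Lcn4, Spn and Trgc2 were in both. Between S+P C4 and S+P C5 the count was 6, and it was 2 with no filter, with an FDR under 0.05 and with only the compared groups in the fit, 11 with a mean of at least 10 CPM, 789 with separate libraries, 957 with DESeq2, 492 with limma voom and 2 to 12 when 1 mouse was left out. For S+P C4 minus Sensitized against N+P C1 minus Naive it was 0, and 2, 727 and 36 with separate libraries, DESeq2 and limma voom, 1 without replicates 2 and 3, and 0 to 1 when 1 mouse was left out. The cause of these changes was not tested. Samples with the same number in S+P C4 and Sensitized came from different mice. The r of their deviations was -0.0247 to 0.134, beside a mean of -0.0105 for different numbers. Between S+P C4 and S+P C5 it was 0.079 to 0.146, beside a mean of -0.0174. Whether the same number marks a shared batch, or in S+P C4 and S+P C5 a shared mouse, was not tested. In a block fit only numbers present in both groups bear on the fold change. For S+P C4 and Sensitized these were replicates 1 to 4, and 1 and 4 without replicates 2 and 3. With the replicate block no gene passed in either comparison or in the first without replicates 2 and 3, and the log2 fold change over Sensitized became -1.09 (-1.19 without the 2) for Cd200, -1.83 (-1.84) for Maf, -2.95 for Nrp1 and -2.84 for Serpinb6b. Leaving out replicates 2 and 3 moved the ribosomal protein share to -2.21 percentage points and the NK marker sum to 3.78 on the log2 scale, both then at p = 0.0286 in the exact permutation test (adjusted p = 0.186 over 13 quantities), and the CD4 and regulatory T cell marker sum to -0.82 (exact permutation p = 0.0571, adjusted p = 0.248). When 1 mouse was left out these ranged from -1.77 to -0.667, 1.91 to 3.96 and -2.81 to -1.47. Of the other alternatives for single genes, 1060 kept the direction and the call or lack of one, 90 gained a call, 3 lost it and 6 turned. Of those leaving out 1 mouse 787 kept both, 1 gained a call and 4 lost it. Depth limits the low genes most, since 3 counts in the Sensitized mice together are 0.0204 CPM.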
